A study of Mus musculus with 70 samples.

Results

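The 8 genes described here mark club cells and other secretory cells of the airway lining: Scgb1a1, Scgb3a1 and Scgb3a2 (secretoglobins), Cyp2f2 and Aldh1a1 (enzymes), Muc1 (a membrane mucin), and Bpifa1 and Bpifb1 (BPI fold proteins). They were taken by gene symbol from a count table of 24423 genes, in which all 8 have a row. The counts come from pieces of whole lung of 70 male mice, 1 library a mouse, in 12 groups of genotype, exposure and time. Knockout (KO, Pds-/-) and wildtype (WT, Pds+/+) mice were homozygous offspring of heterozygous 129S-Slc26a4tm1Erg/AjgJ parents, so that all groups share this background, and KO mice carry the targeted allele of Slc26a4, which encodes the anion exchanger pendrin, in every cell. At about 3 months of age they breathed silica (Min-U-Sil5, a crystalline silica dust, at 15 mg/m3) or air in whole-body chambers for 6 hours a day on 4 days, and lungs were taken 1 day, 3 months or 9 months afterwards. Each group held 6 mice, except WT silica and WT air at 9 months with 5 each. A mouse lung piece holds conducting airway, alveoli and vessels in unknown shares, and in such bulk RNA fewer cells of a type and less RNA per cell cannot be told apart.

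Club cells line the small airways of the mouse, secrete the secretoglobin Scgb1a1 (club cell secretory protein) into the lining fluid, metabolise inhaled compounds with cytochrome P450 enzymes such as Cyp2f2, and can renew themselves and ciliated cells after injury. Other airway secretory cells, mostly in the larger airways, nose and glands, make Scgb3a1, Bpifa1 and Bpifb1, proteins of mucosal defence. Muc1 spans the apical membrane of many epithelial cells, alveolar type 2 cells among them, and Aldh1a1 is expressed outside the airway too, so neither is particular to club cells.

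Libraries held 802478 to 5596318 counts (median 2183482), so that 3 counts, taken as the limit of what a library can show, correspond to 0.549 to 3.72 normalised CPM (the read count of a gene scaled to the size of its library). Slc26a4, the targeted gene, had medians of 13.9 CPM in KO silica and 1.57 CPM in KO air lungs at 1 day, against 50.4 CPM in WT silica and 8.22 CPM in WT air lungs. KO medians were below WT medians of the same exposure at each time, and some Slc26a4 reads were counted in KO lungs. A library labelled KO air of 9 months (replicate 4) had 51.7 CPM of Slc26a4. Its group had a median of 3.33 CPM, and KO silica lungs of 3 months reached 36.4 CPM. The label was kept, and whether it is right was not tested. At 9 months WT air replicate 5 had 74.2 CPM, a level like that of WT silica lungs. These libraries and KO air replicate 5 had the highest Chil3 of all 70 mice (6580, 8010 and 3000 CPM), against 673 to 1080 CPM in the other 8 air mice of 9 months and at most 2470 CPM in all other 67 mice; Chil3 encodes a chitinase-like protein of activated macrophages. KO silica replicate 3 at 3 months also stood apart, with the lowest summed level of 24 other club cell genes (3000 CPM) and of 16 ciliated cell genes (329 CPM) of its group. KO silica replicate 3 at 1 day differed most from its group in counts over all genes (chi-square per degree of freedom 12.5 to 14.3 against each other mouse, whose other pairs were at 1.6 to 3.55). It had the lowest Cyp2f2 of KO silica lungs at that time, 950 CPM. For several results, though not for all, values are given with and without these mice. Markers of airway basal cells and of cartilage, which would show trachea or large bronchi in a piece, were low: Krt5 was at 0 in 64, Krt14 in 51, Trp63 in 18, Col2a1 in 66 and Acan in 69 of 70 mice, and the highest of these levels was 2.49 CPM of Trp63.

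Per kilobase of exon, the scale on which genes can be compared, the order of the median levels was clear. Scgb1a1 stood at 22100 CPM per kilobase (exon length 476 bases), above Cyp2f2 at 672, Scgb3a2 at 342, Aldh1a1 at 172 and Muc1 at 78.0, all in CPM per kilobase. Scgb3a1 followed at 5.54 and Bpifb1 at 1.19 CPM per kilobase. Bpifa1 was at 0 counts in 55 of 70 mice. By mean CPM without regard to length, Scgb1a1 ranked 3 of 24423 genes and took 1.08% of all counts, whereas Scgb3a1 ranked 11133 and Bpifb1 11228. The club cell markers were abundant in these lungs, and Scgb3a1, Bpifa1 and Bpifb1 were scarce.

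The genes also differed in how much mice of 1 group varied. The median within-group SD of log2 CPM was 0.148 for Cyp2f2, 0.154 for Aldh1a1, 0.194 for Scgb1a1, 0.217 for Muc1 and 0.259 for Scgb3a2, beside 0.221 as the median of 13252 tested genes. It was 0.889 for Scgb3a1 and 0.932 for Bpifb1. Both had few counts: Scgb3a1 had 1 to 173 counts and Bpifb1 0 to 138 counts a library, while Scgb1a1 had 8192 to 64409. Bpifa1, with 0 to 8 counts, was mostly at 0 and had a median SD of 0.266.

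**Figure D1:**
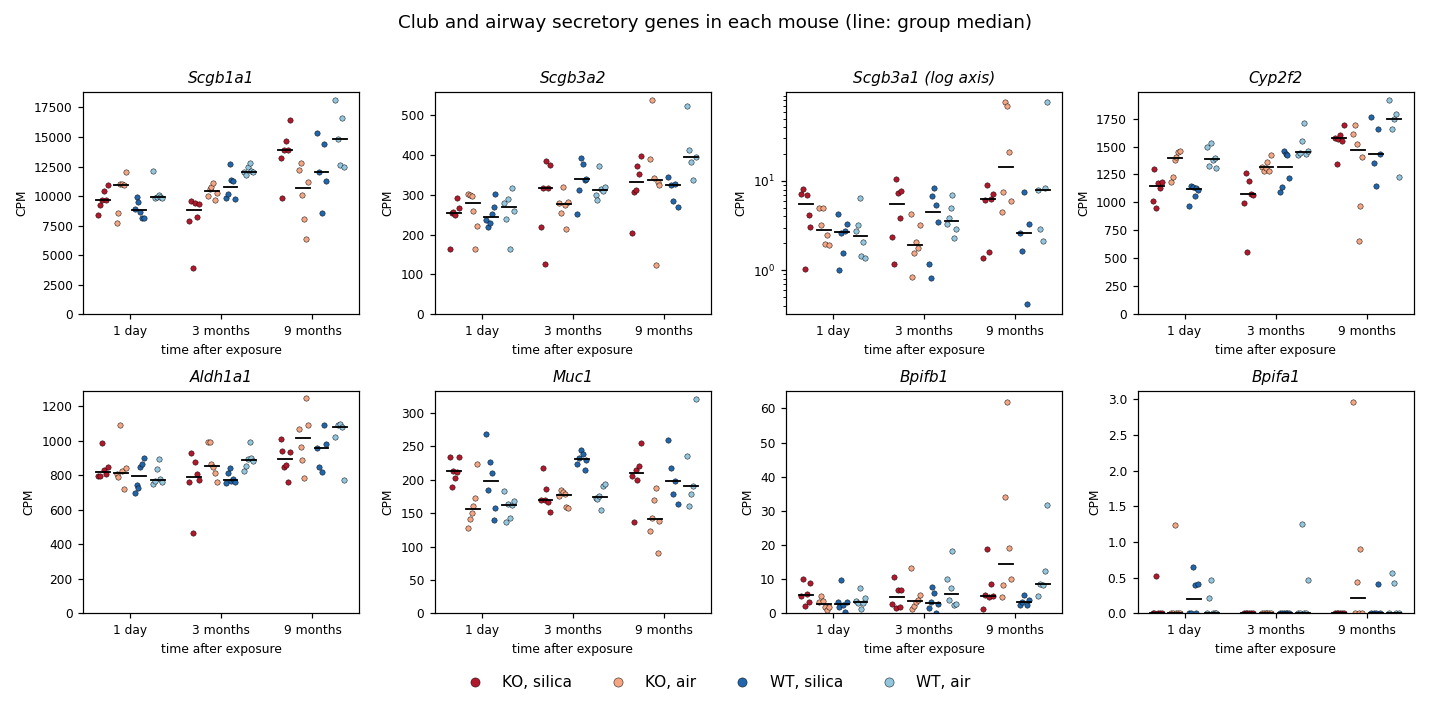
Normalised CPM (y axis; log axis for Scgb3a1, from 0 for the others) of the 8 genes by time after exposure, 1 point a mouse, with the group median as a line. Cyp2f2 lies lower after silica at 1 day and 3 months, and Scgb3a1 and Bpifb1 are high in 4 air mice of 9 months.

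Silica changed few of these genes, and those that passed by 1.31-fold or less. Tests (edgeR's quasi-likelihood test, Benjamini-Hochberg adjustment over all genes of a comparison, threshold 0.05) covered 7 of the 8 genes, since Bpifa1 never passed the filter on low counts. At 1 day, Cyp2f2 fell in KO and in WT lungs, 1 of 7 genes in each, where silica called 1.93% of 12558 genes in KO and 2.37% in WT lungs. Averaged over both genotypes at 1 day, Cyp2f2 fell and Muc1 rose (4.59% of genes called). At 3 months, Cyp2f2 fell in KO lungs (4.8% of 12647 genes called) and Muc1 rose in WT lungs (2.96% called), and in the average of the genotypes Cyp2f2 and Scgb1a1 fell and Muc1 rose (7.95% called).

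At 9 months, no gene of the 7 passed in KO (0.179% of 12826 genes called), in WT (0.0234%) or in their average (0.242%). At an unadjusted p under 0.05, the comparison still held 1350 genes in KO, 875 in WT and 1199 in the average. Without the 3 air mice of highest Chil3, silica called 218 genes in KO lungs, 211 in WT lungs and 497 in the average, among them Muc1 in KO lungs and Scgb3a2 in the average. DESeq2 on all mice called Bpifb1 and Scgb3a1 in the average, in a fit whose share of all genes called was not recorded.

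Silica effects were compared between genotypes directly. None of the 7 genes passed in the difference of the KO and WT silica effects at 1 day, 3 months or 9 months; this test called 0% of all genes at each time, with 716, 970 and 901 genes at an unadjusted p under 0.05. Between genotypes, 1 gene passed: Muc1 was lower in KO silica than in WT silica lungs at 3 months (0.174% of genes called). None passed between KO and WT in air at 1 day (0.0478% called), 3 months (0.142%) or 9 months (0.0156%), nor after silica at 1 day (0.00796%) or 9 months (0%, 512 genes at an unadjusted p under 0.05).

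**Figure D2:**
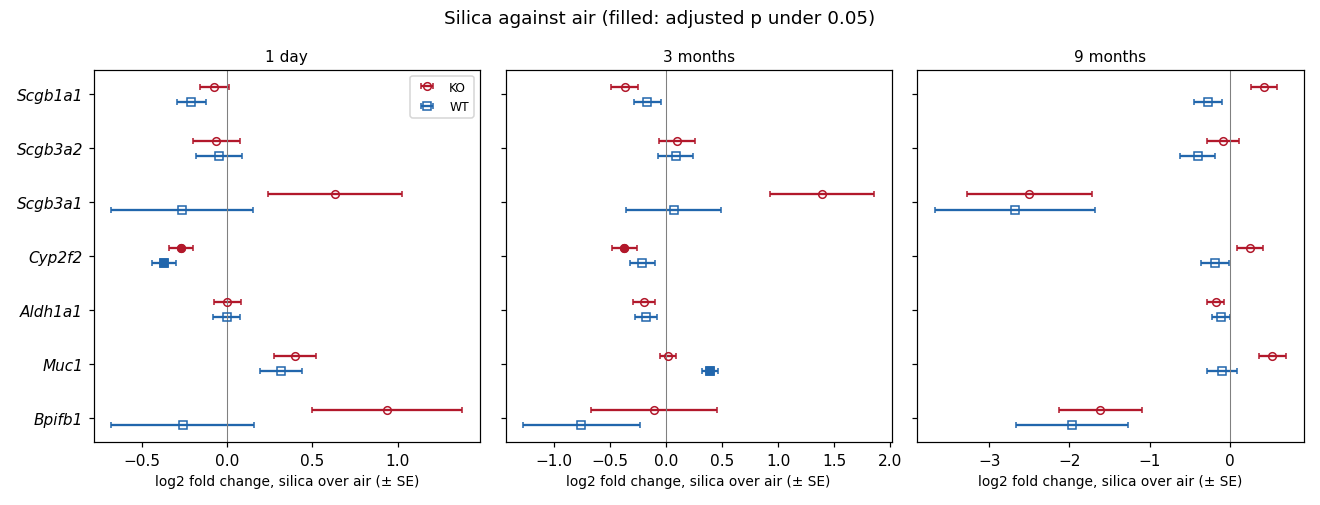
Log2 fold change of silica over air (x axis, ± SE; the scale differs between panels) for 7 genes at 3 times, KO as circles above WT as squares, filled where the adjusted p is under 0.05. Cyp2f2 is left of 0 in both genotypes at 1 day and 3 months, and the errors of Scgb3a1 and Bpifb1 are several times those of the other genes.

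Other club cell genes were set between silica and air in the averages of the genotypes, which called 4.59% of all genes at 1 day and 7.95% at 3 months. Of 22 tested genes of a list of 24, 1 rose and 1 fell in the average of the genotypes at 1 day: Hp, haptoglobin (log2 fold change 0.48 ± 0.06 SE, adjusted p = 1.40e-06), and Cyp4b1, a cytochrome P450 (-0.30 ± 0.07, adjusted p = 0.00574). At 3 months 2 of 22 fell, Cyp4b1 (-0.31 ± 0.05, adjusted p = 5.83e-05) and Fmo2, a flavin monooxygenase (-0.27 ± 0.06, adjusted p = 0.00278), and none rose. The list's median log2 fold change was -0.07 at 1 day and -0.13 at 3 months, beside medians of -0.005 and -0.006 over all genes. Of 15 ciliated cell genes tested, none passed at either time; at an unadjusted p under 0.05 these comparisons held 2069 and 2578 of all genes. Genes of some other lung cells fell at 3 months as well, and some rose. Of 9 alveolar type 1 cell genes 5 fell, such as Akap5 (-0.32 ± 0.05, adjusted p = 5.15e-05) and Hopx (-0.28 ± 0.07, adjusted p = 0.00559). Of 7 endothelial genes 3 fell, such as Kdr, a VEGF receptor (-0.25 ± 0.04, adjusted p = 0.000101), and Gpihbp1 (-0.38 ± 0.07, adjusted p = 0.000885), and of 8 heart muscle genes 4 fell, such as Actc1 (-0.62 ± 0.16, adjusted p = 0.0105). Alveolar type 2 cell genes went both ways, with Sftpd up (0.75 ± 0.07, adjusted p = 8.26e-10) and Sftpb down (-0.27 ± 0.05, adjusted p = 0.000215). So did alveolar macrophage genes, with Marco up (1.75 ± 0.11, adjusted p = 4.99e-13) and Siglecf down (-1.29 ± 0.17, adjusted p = 2.17e-06). The part of all these cells in the values of Scgb1a1 and Cyp2f2 was not tested. Of 5 mucosal defence genes tested, 4 rose at each time, led by Lcn2, lipocalin 2 (3.25 ± 0.10 at 1 day and 2.71 ± 0.10 at 3 months, adjusted p = 1.92e-22 and 4.67e-19), and Pigr, the polymeric immunoglobulin receptor (2.14 ± 0.09 at 1 day, adjusted p = 2.28e-18).

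Scgb1a1 (Entrez gene 22287, chr19:9083642-9087956 on GRCm38) is the classical club cell marker. At 1 day its lowest, median and highest values were 8370, 9670 and 10900 CPM in KO silica lungs, against 7720, 11000 and 12000 CPM in KO air lungs. The WT silica values were 8150, 8790 and 9930 CPM, against 9800, 9920 and 12100 CPM in WT air lungs. The WT groups barely overlapped, with 5 of 6 silica mice under the lowest air mouse, while all 6 KO silica mice lay within the air range, below its median. The log2 fold changes were -0.07 ± 0.08 (SE, adjusted p = 0.830) in KO and -0.21 ± 0.08 (adjusted p = 0.239) in WT lungs.

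At 3 months Scgb1a1 values were 3900, 8810 and 9620 CPM in KO silica lungs, against 9690, 10500 and 11100 CPM in KO air lungs. In WT silica lungs they were 9720, 10700 and 12700 CPM, against 11800, 12100 and 12800 CPM in WT air lungs. The KO groups did not overlap, and 5 of 6 WT silica mice lay under the lowest WT air mouse. Averaged over genotypes, Scgb1a1 fell by 0.27 ± 0.08 on the log2 scale (adjusted p = 0.0440), and as a level fell by 17.0%. Without KO silica replicate 3, the lowest mouse, the log2 fold change was -0.195 and the adjusted p 0.000968; in the KO mice alone it was -0.37 (adjusted p = 0.0687) with that mouse and -0.229 (adjusted p = 0.0152) without it. The averaged call was lost in 19 of the 24 fits that left out 1 library (adjusted p up to 0.0839), and kept without KO silica replicate 2, 3, 4 or 6 or WT silica replicate 3; with all 70 libraries in 1 model it was lost too (adjusted p = 0.0782). Between KO silica and WT silica lungs Scgb1a1 was at -0.43 ± 0.12 (adjusted p = 0.190), and passed without KO silica replicate 3 (-0.287, adjusted p = 0.0247).

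At 9 months no silica comparison of Scgb1a1 passed. Its values were 9850, 13900 and 16400 CPM in KO silica lungs, against 6390, 10700 and 12800 CPM in KO air lungs. WT silica mice had values of 8610, 11300, 12000, 14400 and 15300 CPM, against 12500, 12600, 14800, 16600 and 18100 CPM in WT air lungs. Of the KO silica mice, 5 of 6 lay above the highest KO air mouse, and 3 of 5 WT silica mice lay below the lowest WT air mouse. The log2 fold changes were 0.43 ± 0.16 in KO and -0.27 ± 0.17 in WT lungs, and their difference of 0.70 ± 0.23 did not pass (adjusted p = 0.533). Without the 3 air mice of highest Chil3 the KO value was 0.236 (adjusted p = 0.486), the WT value -0.333 (adjusted p = 0.230) and their difference 0.569 (adjusted p = 0.375). With all mice, the log2 fold change of Scgb1a1 in KO against WT lungs was -0.55 ± 0.17 in air (adjusted p = 0.249). After silica it was 0.15 ± 0.17, and neither passed.

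Cyp2f2 (Entrez gene 13107, chr7:27119955-27133660) oxidises inhaled aromatic compounds such as naphthalene in mouse club cells. It was the only one of the 8 genes to pass in both genotypes at 1 day. Its values at 1 day were 950, 1150 and 1300 CPM in KO silica lungs, against 1180, 1400 and 1460 CPM in KO air lungs. In WT silica lungs they were 965, 1120 and 1150 CPM, against 1310, 1390 and 1530 CPM in WT air lungs. The WT groups did not overlap, and 4 of 6 KO silica mice lay under the lowest KO air mouse.

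On the log2 scale Cyp2f2 fell by 0.27 ± 0.07 in KO (adjusted p = 0.0391) and by 0.37 ± 0.07 in WT lungs (adjusted p = 0.00149). As a level it fell by 17.0% in KO and fell by 22.6% in WT lungs. Averaged over genotypes it fell by 0.32 ± 0.05 (adjusted p = 4.03e-05), lower in all 12 silica mice than the median of their air group. The KO call was lost in 8 of 24 fits that left out 1 library (-0.225, adjusted p = 0.0663 without KO silica replicate 3, the mouse that stood apart; also KO silica replicate 1 or 5, KO air replicate 3, 4, 5 or 6, or WT air replicate 5; adjusted p = 0.0507 to 0.122), and both genotypes' calls were lost when all 70 libraries shared 1 model (adjusted p = 0.429 in KO and 0.136 in WT lungs).

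At 3 months Cyp2f2 values were 558, 1080 and 1260 CPM in KO silica lungs, against 1280, 1320 and 1420 CPM in KO air lungs. Values in WT silica lungs were 1090, 1320 and 1460 CPM, against 1420, 1450 and 1710 CPM in WT air lungs. Silica and air did not overlap in KO mice, and 4 of 6 WT silica mice lay under the lowest WT air mouse. The log2 fold change was -0.37 ± 0.11 in KO (adjusted p = 0.0481) and -0.21 ± 0.11 in WT lungs (adjusted p = 0.420), and -0.29 ± 0.08 in their average (adjusted p = 0.0161). Without KO silica replicate 3 the KO value was -0.249 (adjusted p = 0.0343) and the average -0.229 (adjusted p = 0.00133). The KO call was lost in 19 of 24 fits that left out 1 library, at adjusted p = 0.0515 to 0.0912, and kept without WT air replicate 4, WT silica replicate 1 or KO silica replicate 2, 3 or 4. With all 70 libraries in 1 model the KO call was lost (adjusted p = 0.105) and the averaged call kept (adjusted p = 0.0373).

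At 9 months Cyp2f2 passed in no silica comparison. Its values were 1340, 1580 and 1690 CPM in KO silica lungs, against 655, 1460 and 1690 CPM in KO air lungs. In WT silica lungs they were 1150, 1350, 1430, 1660 and 1760 CPM, against 1230, 1660, 1750, 1790 and 1920 CPM in WT air lungs. Groups overlapped in both genotypes, and the log2 fold changes were 0.25 ± 0.16 in KO (adjusted p = 0.624) and -0.18 ± 0.18 in WT lungs (adjusted p = 0.892). Without the 3 air mice of highest Chil3 they were 0.0013 (adjusted p = 0.999) and -0.276 (adjusted p = 0.141). The silica effect at 9 months minus that at 1 day was 0.35 ± 0.13 for Cyp2f2, short of the threshold (adjusted p = 0.247).

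The promoter of Cyp2f2 is shown because this gene fell in both genotypes at 1 day, and none of the motifs searched was found in it. Windows of promoter sequence (250 bases before to 50 after the start, RefSeq, GRCm38.p6) were used for 6 of the 8 genes, without Scgb1a1 and Scgb3a2. Both strands were searched for forkhead spellings, which FOXA factors bind, and for other motifs. Of all 32851 windows in the table, 3.65% hold the forkhead spelling TGTTTAC, 5.07% hold TGTTTGC, 3.04% hold TATTTAC, 2.76% hold TATTTGC, and 13.5% hold at least one of these. The TATA box TATAAA is in 13.6% of windows, the STAT motif TTCNNNGAA in 8.3%, the C/EBP motif TTNNGCAA in 10.8% and the NF-kappa-B motif in 1.47%. In the printed windows capitals mark forkhead and TATA letters, and a match is a description of letters, not of binding. The Cyp2f2 window (chr7:27119705-27120004, plus strand) reads:
Cyp2f2: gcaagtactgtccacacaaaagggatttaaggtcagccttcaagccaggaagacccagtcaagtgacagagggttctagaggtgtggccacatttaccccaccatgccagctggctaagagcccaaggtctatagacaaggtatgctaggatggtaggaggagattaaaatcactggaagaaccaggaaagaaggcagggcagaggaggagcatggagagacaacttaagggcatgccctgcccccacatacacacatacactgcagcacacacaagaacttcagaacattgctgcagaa

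Cyp2f2 was also set against Scgb1a1 in the same library. It had a median of 11.5 counts per 100 Scgb1a1 counts in KO silica lungs (9.81 to 14), against 13.1 in KO air lungs (12.2 to 15.3), at 1 day. WT silica lungs had a median of 12.1 (10.8 to 13.9), against 13.7 (12.4 to 15.4) in WT air lungs. The ranges overlapped in both genotypes. The log2 ratio differed by -0.21 in KO and by -0.16 in WT lungs (exact permutation test over 924 splits, two-sided p = 0.0368 and 0.0433), and neither passed when adjusted over the 6 comparisons (adjusted p = 0.130 each). At 3 and 9 months p was 0.310 or more. This ratio needs no scaling between libraries; it was chosen after the values were seen.

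**Figure D3:**
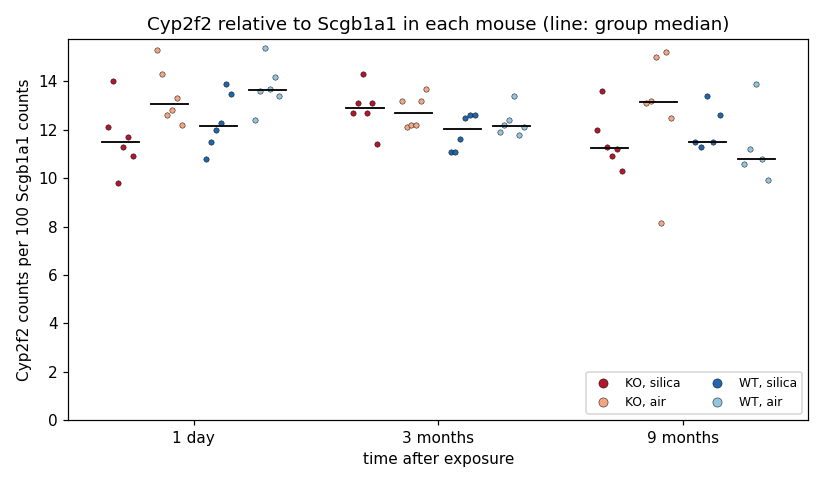
Cyp2f2 counts per 100 Scgb1a1 counts (y axis, from 0) in each mouse by time after exposure, with the group median as a line. Silica groups lie below their air groups in median at 1 day (11.5 against 13.1 in KO, 12.1 against 13.7 in WT), with overlapping points.

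Scgb3a2, a secretoglobin of club cells and their airway progenitors (Entrez gene 117158), passed in no silica comparison. At 1 day it had 164, 255 and 292 CPM in KO silica lungs, against 165, 279 and 302 CPM in KO air lungs. WT silica lungs had 218, 244 and 301 CPM, against 165, 270 and 317 CPM in WT air lungs. Silica and air ranges were nearly the same, with log2 fold changes of -0.06 ± 0.14 in KO and -0.04 ± 0.13 in WT lungs. At 3 months the medians were 317 CPM in KO silica and 277 CPM in KO air lungs, and 339 CPM in WT silica and 311 CPM in WT air lungs (log2 fold changes 0.10 ± 0.16 and 0.09 ± 0.16).

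At 9 months Scgb3a2 had 204, 331 and 396 CPM in KO silica lungs, against 125, 338 and 537 CPM in KO air lungs. The WT silica values were 270, 283, 324, 326 and 345 CPM, against 338, 383, 395, 411 and 523 CPM in WT air lungs. In WT mice 4 of 5 silica values lay below the lowest air value, whereas the KO groups overlapped. The average over genotypes was -0.24 ± 0.15 on the log2 scale (adjusted p = 0.642). Without the 3 air mice of highest Chil3, 1 of which (KO air replicate 4) had the lowest value of 125 CPM, Scgb3a2 was at -0.355 and passed (adjusted p = 0.0381), in a fit that called 3.87% of genes.

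Aldh1a1 (Entrez gene 11668, chr19:20492583-20643463) oxidises retinal to retinoic acid and detoxifies aldehydes. At 1 day it had 795, 820 and 987 CPM in KO silica lungs, against 722, 816 and 1090 CPM in KO air lungs. WT silica lungs had 698, 796 and 899 CPM, against 749, 772 and 896 CPM in WT air lungs. The groups overlapped almost wholly, and the log2 fold changes were 0.00 ± 0.08 in KO and in WT lungs, with an interval of 2 SE from -0.16 to 0.16 in each.

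At 3 months Aldh1a1 had 464, 789 and 929 CPM in KO silica lungs, against 760, 857 and 996 CPM in KO air lungs. WT silica lungs had 754, 772 and 845 CPM, against 826, 888 and 993 CPM in WT air lungs, with 5 of 6 silica mice below the lowest air mouse. Averaged over genotypes the log2 fold change was -0.19 ± 0.07 (adjusted p = 0.0926). It passed only without KO silica replicate 2 (adjusted p = 0.0422) among the 24 fits that left out 1 library. At 9 months the medians were 897 CPM in KO silica and 1020 CPM in KO air lungs, and 961 CPM in WT silica and 1080 CPM in WT air lungs (average -0.14 ± 0.08, adjusted p = 0.612).

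Muc1 (Entrez gene 17829, chr3:89229056-89233381), a membrane mucin that shields epithelial surfaces, was the member that rose with silica. At 1 day it had 189, 212 and 234 CPM in KO silica lungs, against 128, 156 and 224 CPM in KO air lungs. WT silica lungs had 139, 197 and 268 CPM, against 137, 163 and 183 CPM in WT air lungs. All 6 KO silica mice lay above the KO air median, and 4 of 6 WT silica mice above the highest WT air mouse. Averaged over genotypes Muc1 rose by 0.36 ± 0.09 on the log2 scale (1.28-fold, adjusted p = 0.00931); neither genotype passed alone (0.40 ± 0.12, adjusted p = 0.114 in KO and 0.32 ± 0.12, adjusted p = 0.203 in WT lungs). In KO lungs it passed without KO air replicate 6, the highest of its group (0.509, adjusted p = 0.0159). Muc4, a listed mucus gene, rose too in the averages at 1 day (1.22 ± 0.12, adjusted p = 5.19e-09) and 3 months (0.65 ± 0.10, adjusted p = 1.62e-05). Of alveolar type 2 cell genes at 1 day, Sftpd (0.83 ± 0.06, adjusted p = 2.77e-12) and Lamp3 (0.49 ± 0.07, adjusted p = 4.98e-06) rose. Sftpb fell (-0.30 ± 0.09, adjusted p = 0.0499). Their part in the level of Muc1 was not tested.

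At 3 months Muc1 had 151, 169 and 217 CPM in KO silica lungs, against 157, 177 and 185 CPM in KO air lungs. WT silica lungs had 214, 231 and 244 CPM, against 155, 175 and 194 CPM in WT air lungs. The KO groups overlapped and the WT groups did not. The log2 fold change was 0.01 ± 0.07 in KO lungs (adjusted p = 0.963), and Muc1 rose by 0.39 ± 0.07 in WT lungs (1.31-fold, adjusted p = 0.000566), a call kept in all 24 fits that left out 1 library.

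Between genotypes, Muc1 was lower in KO silica than in WT silica lungs at 3 months by a log2 fold change of -0.40 ± 0.07 (adjusted p = 0.00733), and differed by -0.03 ± 0.07 in air (adjusted p = 0.941). The difference of the KO and WT silica effects on Muc1, -0.38 ± 0.10, had an unadjusted p of 0.000706 and did not pass over 12647 genes (adjusted p = 0.409). The averaged silica effect on Muc1 was 0.20 ± 0.05 (adjusted p = 0.00877). With all 70 libraries in 1 model the WT call, the averaged call and the genotype call at 3 months were lost (adjusted p = 0.159, 0.247 and 0.374).

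At 9 months Muc1 had 136, 211 and 255 CPM in KO silica lungs, against 89.9, 140 and 187 CPM in KO air lungs. In WT silica lungs the values were 164, 178, 198, 217 and 259 CPM, against 161, 179, 191, 235 and 321 CPM in WT air lungs. Of the KO silica mice, 5 of 6 lay above the highest KO air mouse, and the WT groups overlapped fully. The log2 fold change was 0.53 ± 0.17 in KO (adjusted p = 0.241) and -0.10 ± 0.18 in WT lungs (adjusted p = 0.957). Without the 3 air mice of highest Chil3, Muc1 passed in KO lungs (0.516, adjusted p = 0.0400, 1.70% of genes called). The difference between genotypes' effects was then 0.423 (adjusted p = 0.579). With all mice, the log2 fold change of Muc1 in KO against WT lungs was -0.62 ± 0.18 in air (adjusted p = 0.245). After silica it was 0.01 ± 0.18, and neither passed.

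The Muc1 window is shown because Muc1 is the gene that rose, and it holds the TATA box at -31 (-1 is the base before the start) and none of the other motifs searched. It lies at chr3:89228806-89229105 on the plus strand:
Muc1: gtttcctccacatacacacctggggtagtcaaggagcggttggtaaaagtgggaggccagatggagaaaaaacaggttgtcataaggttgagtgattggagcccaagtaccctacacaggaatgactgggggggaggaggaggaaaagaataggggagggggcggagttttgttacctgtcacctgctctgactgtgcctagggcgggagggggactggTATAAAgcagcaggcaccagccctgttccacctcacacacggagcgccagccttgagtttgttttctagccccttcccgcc

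Scgb3a1 (Entrez gene 68662, chr11:49663595-49665118), a secretoglobin of larger airways, and Bpifb1 (Entrez gene 228801, chr2:154190818-154220343), a BPI fold protein of mucous secretory cells, were near the floor at 1 day and 3 months. Scgb3a1 medians at these times were 5.57 CPM in KO silica at both, 2.84 and 1.92 CPM in KO air, 2.67 and 4.43 CPM in WT silica, and 2.38 and 3.58 CPM in WT air lungs. Bpifb1 medians were 5.42 and 4.83 CPM in KO silica, 2.71 and 3.71 CPM in KO air, 2.82 and 3.10 CPM in WT silica, and 3.39 and 5.77 CPM in WT air lungs. Neither gene passed in any comparison at 1 day or 3 months. The largest value was Scgb3a1 in KO lungs at 3 months, 1.39 ± 0.47 (adjusted p = 0.0830), where 3 of 6 silica mice lay above the highest air mouse; it passed without KO silica replicate 1 (1.55, adjusted p = 0.0465) and was 1.12 (adjusted p = 0.213) without KO silica replicate 3, the highest mouse.

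At 9 months both genes were high in the same few air mice. Scgb3a1 had 1.35, 6.22 and 8.97 CPM as lowest, median and highest value in KO silica lungs, against 4.45, 5.92, 7.5, 20.9, 68.8 and 76.9 CPM in the 6 KO air lungs. WT silica mice had values of 0.413, 1.63, 2.59, 3.29 and 7.56 CPM, against 2.1, 2.87, 7.85, 8.30 and 76.5 CPM in WT air lungs. The 4 air mice over 20 CPM were WT air replicate 5 and KO air replicates 3, 4 and 5, and every other mouse of the series had at most 10.6 CPM.

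Bpifb1 had 1.35, 5.21 and 18.8 CPM in KO silica lungs, against 4.82, 8.38, 10.1, 19.1, 34.2 and 62.0 CPM in KO air lungs. In WT silica lungs the values were 2.48, 2.59, 3.25, 3.84 and 5.34 CPM, against 4.99, 8.42, 8.61, 12.5 and 31.7 CPM in WT air lungs. The highest Bpifb1 in each air group belonged to mice that were also high in Scgb3a1: 31.7 CPM in WT air replicate 5, and 34.2, 62.0 and 19.1 CPM in KO air replicates 3, 4 and 5. Of the WT silica mice 4 of 5 lay below the lowest WT air mouse.

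Other genes were high in the same mice. Muc5b, the gel-forming mucin of airway secretory cells, had 285 CPM in WT air replicate 5 and 117, 490 and 104 CPM in KO air replicates 3, 4 and 5, against 36.2 to 54.4 CPM in the other air mice of 9 months. Ltf, lactoferrin, had 33.1 CPM in WT air replicate 5 and 30.7, 43.6 and 12.7 CPM in those KO mice, against 0.713 to 5.40 CPM in the others. Chil3 was 1080 CPM in KO air replicate 3, the top of the range of the other air mice, so Scgb3a1 and Chil3 did not rank these mice alike. Muc5ac and Clca1 differed in size between the genotypes. Their highest air values at 9 months were 63.8 and 2120 CPM in KO lungs (medians 2.45 and 9.39 CPM). In WT lungs these were 7.46 and 10.3 CPM (medians 1.66 and 0 CPM). The part of macrophage or mucous cell genes in these levels was not tested, and Muc5b, Ltf, Muc5ac and Clca1 were chosen after their values were seen.

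Neither gene passed between silica and air at 9 months. Averaged over genotypes, the log2 fold change was -2.59 ± 0.63 for Scgb3a1 and -1.79 ± 0.43 for Bpifb1 (adjusted p = 0.0758 for each), in KO lungs -2.50 ± 0.78 and -1.61 ± 0.52, and in WT lungs -2.68 ± 1.00 and -1.96 ± 0.70. Without WT air replicate 5 the WT value of Scgb3a1 was -0.739 (adjusted p = 0.876), and without KO air replicate 4 the KO value of Bpifb1 was -1.01 (adjusted p = 0.404). Without the 3 air mice of highest Chil3 the averages were -1.43 (adjusted p = 0.188) and -1.14 (adjusted p = 0.0690). Without WT air replicate 5 alone the Scgb3a1 average was -1.62 (adjusted p = 0.293), and without KO air replicate 1 both genes passed.

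The silica effect at 9 months minus that at 1 day passed for Scgb3a1 (-2.78 ± 0.75, adjusted p = 0.0491; 0.868% of 13252 genes called) and for no other of the 7 genes. This call was lost in 51 of 70 fits that left out 1 library and without the 3 air mice of highest Chil3 (-1.63, adjusted p = 0.499). For Bpifb1 the difference was -2.13 ± 0.61 (adjusted p = 0.0685). The same difference between 3 months and 1 day passed for none of the 7 genes (0.0755% called).

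**Figure D4:**
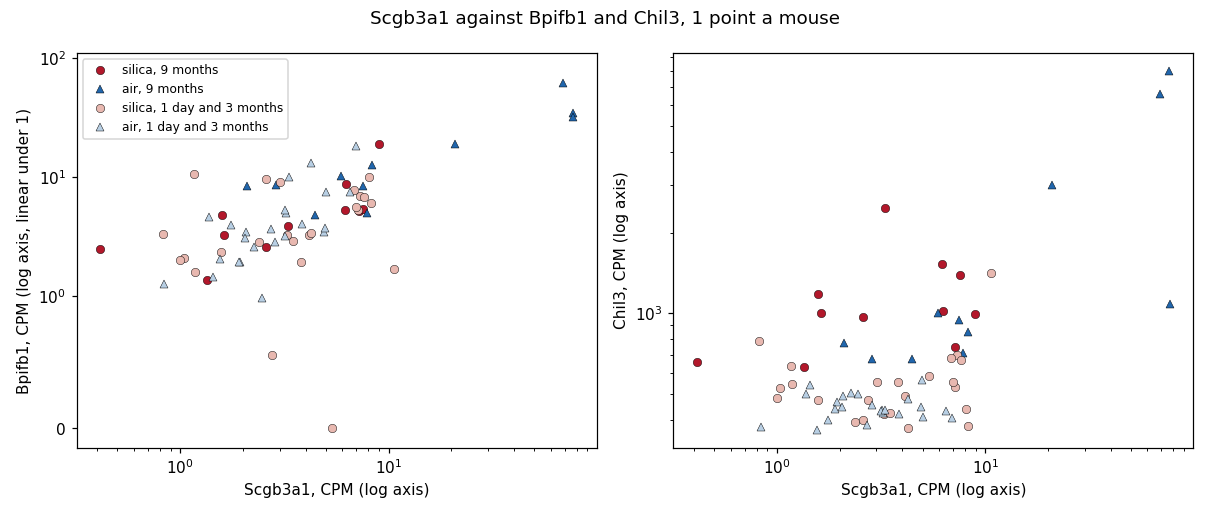
Scgb3a1 (x axis, CPM, log) against Bpifb1 (left) and Chil3 (right), both in CPM on log axes, 1 point a mouse, silica as circles and air as triangles, 9 months in dark colours. The 4 air mice of 9 months over 20 CPM of Scgb3a1 are also high in Bpifb1 (19.1 to 62.0 CPM), and 3 of them in Chil3 (3000 to 8010 CPM).

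The promoter windows of both genes are shown because their levels went together between mice, and both hold a forkhead spelling close to the start. In Scgb3a1 (chr11:49663345-49663644) it is TGTTTGC on the minus strand, read as GCAAACA, from position -55. In the first Bpifb1 window (chr2:154190568-154190867) the same letters begin at -43. A second Bpifb1 start (chr2:154200130-154200429) has overlapping TATTTGC and TATTTAC spellings, from -115 and -110. Forkhead spellings are not particular to this pair of genes. TATTTAC also lies in a window of Aldh1a1 (-213, minus strand) and in that of Bpifa1 (-127), neither of them printed. Scgb3a1 and the second Bpifb1 window also hold the STAT motif, at -194 and -146, and the first Bpifb1 window the NF-kappa-B motif at -78. All lie on the plus strand, as follows:
Scgb3a1: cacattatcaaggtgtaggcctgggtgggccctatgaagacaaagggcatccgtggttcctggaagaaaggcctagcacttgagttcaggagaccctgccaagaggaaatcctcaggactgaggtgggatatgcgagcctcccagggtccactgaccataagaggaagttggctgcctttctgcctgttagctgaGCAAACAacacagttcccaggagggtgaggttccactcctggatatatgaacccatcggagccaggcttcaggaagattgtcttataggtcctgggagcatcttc
Bpifb1 first start: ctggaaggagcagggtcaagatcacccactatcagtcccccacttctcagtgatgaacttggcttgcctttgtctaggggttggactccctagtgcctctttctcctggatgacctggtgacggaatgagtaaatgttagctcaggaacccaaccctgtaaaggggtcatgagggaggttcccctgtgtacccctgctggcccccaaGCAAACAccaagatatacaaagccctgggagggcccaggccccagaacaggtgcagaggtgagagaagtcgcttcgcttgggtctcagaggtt
Bpifb1 second start: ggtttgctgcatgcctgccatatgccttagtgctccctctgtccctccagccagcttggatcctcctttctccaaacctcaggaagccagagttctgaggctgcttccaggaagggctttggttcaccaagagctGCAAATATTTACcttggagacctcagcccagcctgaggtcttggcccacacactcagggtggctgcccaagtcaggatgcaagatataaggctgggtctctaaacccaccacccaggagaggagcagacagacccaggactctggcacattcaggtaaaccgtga

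Bpifa1 (Entrez gene 18843, chr2:154142880-154149217), a surfactant-like defence protein of the upper airway also known as Splunc1, was not measurable here. It had 26 counts in all 70 libraries together and at most 8 in 1 library (KO air of 9 months, replicate 1, 2.97 CPM). All KO silica mice of 3 and 9 months, and all WT silica and KO air mice of 3 months, had 0 counts, which at 3 counts a library allows levels of up to 3.52 CPM in the shallowest of these libraries. A difference between groups was not detectable at this depth. Of 12 other BPI fold genes none passed the filter in any comparison. Bpifb9a was at 0 in all 70 mice, whereas Bpifb5 was at 0 in 1 mouse and reached 18 counts (5.02 CPM). Among 6 other secretoglobin genes, 1 was tested at each time, and it passed in no silica comparison averaged over genotypes.

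In air, 9 months against 1 day, 5 of 7 genes rose, where 35.2% of 13252 genes were called; at 3 months against 1 day none passed (0.113% called). KO and WT air mice were averaged. Mice of each time were killed apart, so age, time after exposure and anything else that differed between collections cannot be told apart in them. Scgb3a1 rose by 2.93 ± 0.43 and Bpifb1 by 2.35 ± 0.38 on the log2 scale (adjusted p = 6.35e-08 and 6.62e-07). Without the 3 mice of highest Chil3 these were 1.78 (adjusted p = 0.00118) and 1.70 (adjusted p = 0.000387), in a fit that called 23.1% of genes. Without the 4 mice over 20 CPM of Scgb3a1, a choice on that gene which itself lowers it, they were 0.775 (adjusted p = 0.130, so that the Scgb3a1 call was lost) and 1.23 (adjusted p = 0.0163).

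The abundant genes rose less. Scgb3a2 rose by 0.54 ± 0.13 (adjusted p = 0.000731), Aldh1a1 by 0.30 ± 0.07 (adjusted p = 0.000607) and Scgb1a1 by 0.26 ± 0.10 (adjusted p = 0.0247). Without the 3 mice the values were 0.654, 0.343 and 0.392, and each passed. Cyp2f2 was at 0.10 ± 0.09 (adjusted p = 0.443) with all mice and passed without the 3 (0.271, adjusted p = 0.00443). The Scgb1a1 call was lost without the filter on low counts (0.234, adjusted p = 0.0588) and without KO air replicate 1 of 1 day, WT air replicate 1, KO air replicate 1 or KO air replicate 2 of 9 months (adjusted p up to 0.0819). Muc1 was at 0.13 ± 0.10 and did not pass (adjusted p = 0.330).

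Genes of other cells moved in the same comparison. All 15 ciliated cell genes tested rose (median 0.945), led by Ccdc153, a coiled-coil protein of cilia (1.19 ± 0.11, adjusted p = 8.42e-14), and Dnah5, an axonemal dynein (1.05 ± 0.10, adjusted p = 1.61e-13). Of 22 other club cell genes 13 rose and 1 fell (median 0.433), led by Hp (0.72 ± 0.07) and Cyp2s1, a cytochrome P450 (0.66 ± 0.08, adjusted p = 6.38e-10), beside a median of 0.016 over all genes. Genes outside the airway moved too: 6 of 7 alveolar macrophage genes rose, led by Marco, a scavenger receptor (2.33 ± 0.22, adjusted p = 3.29e-13), 5 of 6 neutrophil genes rose, led by S100a8 (1.52 ± 0.26, adjusted p = 3.38e-06), and 6 of 7 endothelial genes fell, led by Cdh5, a cadherin of vessel walls (-0.78 ± 0.07, adjusted p = 1.84e-14). Their part in the rise of the secretory genes was not tested. Of 7 goblet cell and mucus genes tested 6 rose, led by Muc5b (2.31 ± 0.33, adjusted p = 6.32e-08). The summed level of the 16 ciliated cell genes had a median of 1040 CPM in KO air and 1060 CPM in WT air lungs at 9 months, against 604 and 633 CPM at 1 day. Without the 3 mice all 15 ciliated genes, 13 of 22 club cell genes and 5 of 7 mucus genes rose, as did 5 of 7 macrophage and 5 of 6 neutrophil genes, and 6 of 7 endothelial genes fell.

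Between mice of 1 group, levels of several of the genes went together. Correlations were taken over 70 mice on log2 CPM minus the group mean, for all 28 pairs, with p from 100000 permutations within groups and Benjamini-Hochberg adjustment over the pairs; 9 pairs passed by Pearson's r, 8 positive and 1 negative, and 7 of these also by Spearman's rho. One of the positive pairs, Aldh1a1 and Bpifa1 (r = 0.358, adjusted p = 0.0258), rests on the 15 mice with any Bpifa1 count and is not read further. Scgb1a1 and Cyp2f2 went together most closely, with r = 0.813 and rho = 0.794 (p = 1e-05 for both, the smallest the permutations can give, adjusted p = 0.00028 and 0.00014). Within times r was 0.587 at 1 day, 0.947 at 3 months and 0.781 at 9 months. It was 0.747 without the 2 mice farthest from the Scgb1a1 median, and 0.745 without the 4 mice that stood apart (3 air mice of 9 months and KO silica replicate 3 of 3 months).

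Scgb3a1 and Bpifb1 also went together, with r = 0.574 and rho = 0.608 (p = 2e-05 and 1e-05, adjusted p = 0.00028 and 0.00014). Their r was 0.508 at 1 day, 0.272 at 3 months and 0.831 at 9 months, 0.530 without the 2 farthest mice and 0.533 without the 4 mice that stood apart. Scgb3a2 and Cyp2f2 had r = 0.656 and rho = 0.451 (adjusted p = 0.00159 and 0.0042), but r was -0.018 at 1 day against 0.864 at 3 months and 0.737 at 9 months, and fell to 0.308 without the 4 mice. Scgb1a1 and Muc1 had r = 0.374 and rho = 0.364 (adjusted p = 0.0264 and 0.0301), and r = 0.566 without the 4 mice. Scgb1a1 and Scgb3a2 had r = 0.503 and rho = 0.413 (adjusted p = 0.0258 and 0.0157), and r = 0.264 without them. By r alone, Cyp2f2 and Aldh1a1 (0.499, adjusted p = 0.0258) and Scgb3a2 and Aldh1a1 (0.425, adjusted p = 0.0431) passed, at 0.189 and 0.0941 without the 4 mice. The negative pair was Scgb3a1 and Aldh1a1 (r = -0.447, rho = -0.330, adjusted p = 0.00945 and 0.0428), at -0.703 within 9 months and -0.289 without the 4 mice. No pair of Scgb1a1 or Cyp2f2 with Scgb3a1 or Bpifb1 passed. With Bpifb1, r was -0.0622 for Scgb1a1 (adjusted p = 0.738) and -0.122 for Cyp2f2 (adjusted p = 0.628). With Scgb3a1, r was -0.326 for Scgb1a1 (adjusted p = 0.0845) and -0.329 for Cyp2f2 (adjusted p = 0.139). Within 9 months these values were -0.453, -0.644, -0.423 and -0.573, in that order. Without the 4 mice they were -0.048, 0.109, -0.153 and 0.109.

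**Figure D5:**
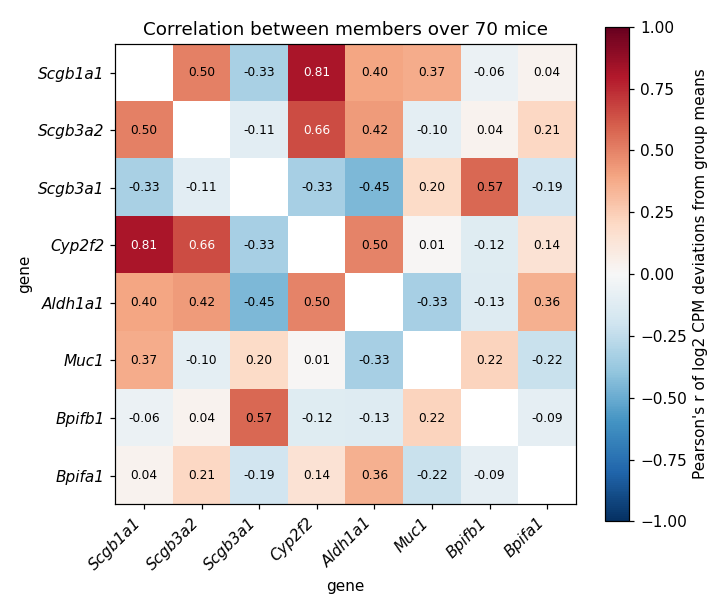
Pearson's r (colour and printed value) between the 8 genes over 70 mice, on log2 CPM deviations from the group means. Scgb1a1 and Cyp2f2 (0.81) are the highest pair, followed by Scgb3a2 and Cyp2f2 (0.66) and by Scgb3a1 and Bpifb1 (0.57). Scgb3a1 and Aldh1a1 (-0.45) are the lowest.

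Among 14435 other genes with a mean of at least 1 CPM, the pattern most like Scgb1a1 over the 70 mice, by r of the same deviations, was that of Ptpn13 (0.825), followed by Ppl (0.781), Klf5 (0.752), Slco2a1 (0.747) and Reep6 (0.746). For Cyp2f2 the first were Tead1 (0.772), Sec14l3 (0.771), Slc4a5 (0.771) and Scnn1b (0.768). For Scgb3a1 they were Itih4 (0.660), Cd177 (0.647), Itgax (0.631) and Ikbke (0.626), and without the 11 air mice of 9 months r with Itih4 was 0.372 and with Itgax 0.241. For Bpifb1 the first was Muc5b (0.624, and 0.506 without those mice), then Tmc5 (0.565), Dpp3 (0.564), 1600014C10Rik (0.557) and Atp10a (0.553). These are descriptions over libraries that share depth and composition, the members themselves were left out, none are given for Bpifa1, which is near 0, and the lists for Cyp2f2, Scgb3a1 and Bpifb1 were added after values were seen.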

How the data were processed

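RNA was sequenced from a piece of lung of each of 70 male mice. Per the labels' protocols, total RNA was depleted of ribosomal RNA and made into stranded libraries with 12 cycles of amplification. The deposited table holds whole-number counts per gene made by the authors. The submitters' processing notes name bcl2fastq 2.19, Trimmomatic 0.35, HISAT2 2.1.0, Cufflinks, SAMtools 1.8, HTSeq 0.11.2 and the mm10 genome (GRCm38); the annotation and the strand setting of the counting are not given in the sources used here, so reads of overlapping genes may be shared.

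Of 24439 rows, 16 that repeat another were dropped. Genes were filtered by filterByExpr and scaled by TMM (edgeR 4.0.16, limma 3.58.1, R 4.3.3), leaving 12558, 12647 and 12826 genes in 1 model per time and 13252 in the model across times. The quasi-likelihood test was used with Benjamini-Hochberg adjustment over all genes, and SE is the log2 fold change divided by the root of F. p-values measure the spread between mice. The members and gene lists were chosen with earlier results of these data known. Named are the 8 members in each comparison and, per list, up to 4 genes past the threshold by smallest p. Some genes with a pattern like a member are not reported here. Alternatives were DESeq2 1.42.0 and its size factors, no filter, 1 model of all 70 libraries and leaving out each mouse. Leaving out the mice that stood apart and the Cyp2f2 to Scgb1a1 ratio were chosen after seeing the data. No 2 libraries of a group agreed within sampling noise (chi-square per degree of freedom 1.47 to 14.3). Correlations were computed with numpy 2.4.6 and pandas 2.3.3 in Python 3.11.15, on log2 CPM with a prior count of 2, and figures drawn with matplotlib 3.10.9. The limit of 3 counts covers counting error only.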

Additional observations from a re-analysis of the deposited data

Results flagged for a closer look

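In 12 of 92 sets of 1 gene in 1 group, 1 mouse lay far from the others by Dixon's criterion. For independent sets of normal values, chance alone meets it in about 1 of 20. That rate is no measure of these sets, since genes vary together between mice. A Bpifa1 group with 1 mouse above 0 also meets the criterion by construction. KO silica replicate 3 of 3 months was low in 3 genes: Scgb1a1 at 3900 CPM (the others 7870 to 9620), Cyp2f2 at 558 CPM (998 to 1260) and Aldh1a1 at 464 CPM (763 to 929). At 9 months, Scgb3a2 was at 125 CPM in KO air replicate 4 (325 to 537) and Aldh1a1 at 775 CPM in WT air replicate 5 (1020 to 1100), both among the mice of highest Chil3.

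At 1 day, Aldh1a1 was at 987 CPM in KO silica replicate 3 (795 to 849) and at 1090 CPM in KO air replicate 3 (722 to 841). Scgb3a2 was at 164 CPM in KO silica replicate 1 (249 to 292), and Scgb1a1 at 12100 CPM in WT air replicate 1 (9800 to 10100). Bpifa1 was above 0 in 1 mouse of its group at 0.52 CPM in KO silica replicate 3 and 1.24 CPM in KO air replicate 3 of 1 day, and at 0.413 CPM in WT silica replicate 4 of 9 months, each from 1 count.

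The silica effect on Scgb3a1 at 9 months minus that at 1 day was -2.78 on the log2 scale, and the difference itself just passed (adjusted p = 0.0491, edgeR). This call was lost in 51 of 70 fits that left out 1 library. It was also lost without the 3 air mice of highest Chil3 (-1.63, adjusted p = 0.499).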

How the results depend on the processing

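Counts of the 7 tested genes past the threshold moved with some settings. With all 70 libraries in 1 model, 0 genes passed for silica in KO and in WT at 1 day and at 3 months (1 each in the models per time), 1 in the average at 3 months (3) and 0 between KO silica and WT silica at 3 months (1), while 2 passed in KO and in the average at 9 months and between KO air and WT air at 9 months (0 each). DESeq2 gave 2 in the average at 9 months and 2 for the silica effect at 9 months minus 1 day (1 by edgeR), and no filter on low counts gave 2 in the average at 9 months. Without the 3 mice of highest Chil3, 1 gene passed in KO (Muc1) and 1 in the average (Scgb3a2) at 9 months (1.7% and 3.87% of all genes called). For the effect at 9 months minus 1 day 0 passed (0.278% called). Leaving out the 4 air mice over 20 CPM of Scgb3a1 is a choice on the outcome that itself lowers the air level. Without them these counts were 1, 3 and 0 (1.44%, 3.59% and 0.336% called), with Muc1 in KO and Aldh1a1, Muc1 and Scgb3a2 in the average. In that fit Bpifb1 in KO turned to 0.0162. Leaving out 1 library gave 0 to 1 for KO at 1 day, 0 to 2 for KO at 3 months, 0 to 1 for KO air against WT air and 1 to 2 for KO silica against WT silica at 3 months, 0 to 2 for the average at 9 months and 0 to 2 for the effect at 9 months minus 1 day. For 1 model, DESeq2, no filter and single left-out libraries, the share of all genes called was not recorded. These counts therefore have no background beside them. Of the 28 pairs, 0 passed in mice of 1 day alone and 5 in mice of 3 months alone, against 9 over all. The cause of these shifts was not tested. No paired analysis was possible because replicate numbers only follow accession order. Depth limits Bpifa1, Bpifb1 and Scgb3a1.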
